A study of Mus musculus with 6 samples.

Results

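The genes of the J proteins (*Dnaj*) and of the Hsp70 chaperones were compared between *Hdac3* floxed mice and adipose *Hdac3* knockouts (H3atKO), in RNA of inguinal white adipose tissue (IngWAT). They were chosen by symbol, as protein-coding genes whose GENCODE symbol begins with *Dnaj* or with *Hspa* and a digit. Of 58 such genes, 57 had their identifier in the count files, and *Hspa14* was not analysed here. A further 4 (*Dnajb8*, *Dnajc5b*, *Dnajc5g* and *Dnajc22*) had fewer than 10 counts over the 6 samples and were left out. The genes next to this limit were *Dnajc22* with 9 counts and *Dnajb7* with 47. This left 53 genes of the 46517 in the files, 12 of the *Hspa* family and 41 of the *Dnaj* family. By the place where their proteins act, 32 were listed as cytosolic (nuclear ones included), 8 as mitochondrial and 13 as endoplasmic reticulum (ER) genes.

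Both groups were C57Bl6 mice aged 5 to 9 months and fed chow. The floxed mice carry *Hdac3* alleles flanked by loxP sites and served as the controls, and the H3atKO mice carry in addition the Adipoq-cre transgene, in which the adiponectin promoter drives the Cre recombinase. The promoter is active in adipocytes, so other cells of the fat pad keep *Hdac3*. Each of the 3 samples per genotype was a pool of RNA from 2 or 3 mice, sequenced as poly(A)-selected RNA. The labels do not say whether mice, litters or days were shared between pools, so the p-values measure the spread between these pools.

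Hsp70 proteins hold short stretches of unfolded protein and let them go again as they split ATP. J proteins, which the *Dnaj* genes encode, bring clients to Hsp70 and start the splitting of ATP through their J domain, and nucleotide exchange factors then reset Hsp70. Each compartment has its own Hsp70. *Hspa8* encodes the constitutive Hsp70 of the cytosol and *Hspa1a* and *Hspa1b* its heat-inducible relatives. *Hspa9* encodes mortalin, the Hsp70 of the mitochondrial matrix, which pulls imported proteins through the inner membrane, and *Hspa5* encodes BiP, the Hsp70 of the ER lumen. Adipocytes secrete adipokines made in the ER, and the mitochondria of thermogenic fat import proteins made in the cytosol. Heat shock factors bind repeats of GAA and TTC in promoters of cytosolic chaperone genes, and the factors ATF6 and XBP1 of the unfolded protein response of the ER bind promoter elements in which CCAAT and CCACG stand a fixed distance apart.

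Promoters of some members are shown first, and the part of promoter sequence in the results was not tested. The sequences are from RefSeq (GRCm38.p6) and run from 250 bases before to 50 after the start of transcription. RefSeq promoters matched 44 of the 53 genes by symbol. *Dnajb9* had the largest fold change of the members in the test without GC correction, *Hspa5* and *Dnajc3* share the ER stress element, *Dnajb6* holds a run of heat shock repeats, and *Hspa1b* stands for the heat-inducible pair. Capitals mark the matches to the searched letters. The windows lie at chr12:44210019-44210318 (minus strand) for *Dnajb9*, at chr2:34771840-34772139 (plus strand) for *Hspa5*, at chr14:118937682-118937981 (plus strand) for *Dnajc3*, at chr5:29735648-29735947 (plus strand) for *Dnajb6* and at chr17:34959189-34959488 (minus strand) for *Hspa1b*.
Dnajb9: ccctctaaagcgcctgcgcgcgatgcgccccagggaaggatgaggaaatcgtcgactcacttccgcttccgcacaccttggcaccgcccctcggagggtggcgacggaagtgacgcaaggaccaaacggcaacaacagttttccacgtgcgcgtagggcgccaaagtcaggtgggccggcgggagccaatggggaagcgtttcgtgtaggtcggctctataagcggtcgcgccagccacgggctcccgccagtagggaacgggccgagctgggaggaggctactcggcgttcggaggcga
Hspa5: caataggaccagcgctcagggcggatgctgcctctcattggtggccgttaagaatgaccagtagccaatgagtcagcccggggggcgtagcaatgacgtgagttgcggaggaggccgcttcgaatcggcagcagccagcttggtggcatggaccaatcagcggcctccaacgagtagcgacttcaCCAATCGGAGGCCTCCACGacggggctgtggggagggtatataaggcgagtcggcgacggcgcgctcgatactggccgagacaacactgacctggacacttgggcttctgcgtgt
Dnajc3: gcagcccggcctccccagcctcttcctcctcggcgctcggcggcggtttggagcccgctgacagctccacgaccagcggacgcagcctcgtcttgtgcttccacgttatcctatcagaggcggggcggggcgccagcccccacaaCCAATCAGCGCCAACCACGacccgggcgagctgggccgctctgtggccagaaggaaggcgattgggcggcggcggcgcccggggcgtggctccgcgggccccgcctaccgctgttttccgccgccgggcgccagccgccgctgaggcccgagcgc
Dnajb6: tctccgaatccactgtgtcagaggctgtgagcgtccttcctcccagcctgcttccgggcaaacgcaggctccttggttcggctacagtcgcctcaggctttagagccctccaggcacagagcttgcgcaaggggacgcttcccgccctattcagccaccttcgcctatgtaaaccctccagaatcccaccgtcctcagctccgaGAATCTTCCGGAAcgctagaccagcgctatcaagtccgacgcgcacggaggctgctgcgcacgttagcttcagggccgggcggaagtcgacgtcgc
Hspa1b: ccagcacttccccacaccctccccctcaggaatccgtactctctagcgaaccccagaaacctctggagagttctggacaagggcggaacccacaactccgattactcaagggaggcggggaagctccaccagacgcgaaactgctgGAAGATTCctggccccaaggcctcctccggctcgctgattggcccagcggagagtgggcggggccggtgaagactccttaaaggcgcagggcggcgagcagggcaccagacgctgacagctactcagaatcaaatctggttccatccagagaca

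The letters CCAAT and CCACG with 9 bases between them, searched on both strands like all motifs here, were present in 2 matched members, *Hspa5* and *Dnajc3*, and in 0.119% of all 32851 RefSeq promoters. The match began 65 bases before the start in *Hspa5* and 105 bases before it in *Dnajc3*. The related letters ATTGG and CCACG with 1 base between them were found in *Dnajb11* alone among matched members (0.0365% of all promoters), and TGACGTGG in *Dnajc25* alone (0.676%). The printed window of *Dnajb9* held none of these letters. The heat shock pair GAANNTTC was present in 6 matched members, which were *Dnaja1*, *Dnaja4*, *Dnajb6*, *Dnajc27*, *Hspa1a* and *Hspa1b*, and in 7.86% of all promoters. The pair in the other phase, TTCNNGAA, was present in *Dnajb4*, *Dnajb6* and *Dnajc10* and in 8.52% of all promoters. The run of 3 repeats, GAA, TTC and GAA with 2 bases between them, contains both pairs and was found in *Dnajb6* alone among matched members, against 0.603% of all promoters. The promoters of *Hspa1a* and *Hspa1b* had the same base at 296 of 300 positions.

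Between 23865507 and 35200685 reads per sample were counted on genes, and a floor of 3 counts, which allows for counting error alone, was between 0.0658 and 0.190 cpm (counts scaled to the TMM-normalized library size). *Hdac3*, the deleted gene, was at 68.9, 80.2 and 65.8 cpm in floxed replicates 1 to 3 and at 27.4, 21 and 12.9 cpm in H3atKO replicates 1 to 3, with no overlap. It fell by 1.83 on the log2 scale (standard error 0.32, adjusted p = 0.0213) and was past the threshold in 1 of the 6 fits that left out a sample, the one without floxed replicate 3. Genes of the mitochondrial genome took between 6.92 and 12.9% of the counts in floxed and between 26.9 and 35.3% in H3atKO samples. Expression also followed the GC content of the transcript. For each sample, Spearman's rho across genes between GC content and the distance to the gene's mean ran from 0.0969 to 0.800 in floxed and from -0.711 to -0.433 in H3atKO samples, so genotype and GC content cannot be told apart, and values after a GC correction are given below. The 8 adipocyte markers summed to between 13800 and 32400 cpm in floxed and between 15700 and 27000 cpm in H3atKO samples, most of it from *Fabp4*, and 0 of them passed the test with limma voom. In 2 of the 8 every H3atKO sample lay below every floxed sample, against 28.6% of all tested genes. These were *Lipe* (1490, 628 and 135 against 67.4, 115 and 27.5 cpm) and *Retn* (574, 493 and 301 against 174, 263 and 70.3 cpm). Their part in the results was not tested. Sums of markers of B cells (3.82 to 129 against 3.72 to 435 cpm), T cells (5.05 to 54.6 against 26.2 to 152 cpm), macrophages (369 to 2140 against 335 to 599 cpm) and skeletal muscle (577 to 2390 against 2.46 to 3150 cpm) varied widely within a genotype, and 1 T cell marker rose and 1 macrophage marker fell. Those of mammary epithelium summed to 0.745 to 3.45 against 0 to 8.97 cpm and immediate early genes to 47.0 to 85.3 against 39.0 to 58.0 cpm. In bulk tissue, fewer cells of a type and less RNA per cell cannot be told apart.

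Of the 53 members, 51 passed the expression filter and were tested. By limma voom at a Benjamini-Hochberg adjusted p under 0.05, 18 rose and 0 fell, where 9.42% of all tested genes rose and 7.07% fell. The median log2 fold change of the tested members was 0.41, against -0.09 over all 14967 tested genes. At an unadjusted p under 0.05, 23 members were higher and 4 lower, against 3056 and 3506 of all 14967 tested genes. With edgeR's quasi-likelihood test 18 members rose (12.8% of all genes) and 3 fell (18.4%), and with DESeq2 22 rose (19.7%) and 4 fell (23.2%). The genes that rose in limma voom came from all 3 compartments. By location, 9 of 30 tested cytosolic, 4 of 8 mitochondrial and 5 of 13 ER members rose. By family, 5 of 11 tested *Hspa*, 2 of 4 *Dnaja*, 4 of 11 *Dnajb* and 7 of 25 *Dnajc* genes did. Every H3atKO sample lay above every floxed sample in 27 of the 51 tested members (23.1% of all tested genes) and below every floxed sample in 6 (28.6% of all tested genes).

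**Figure D1:**
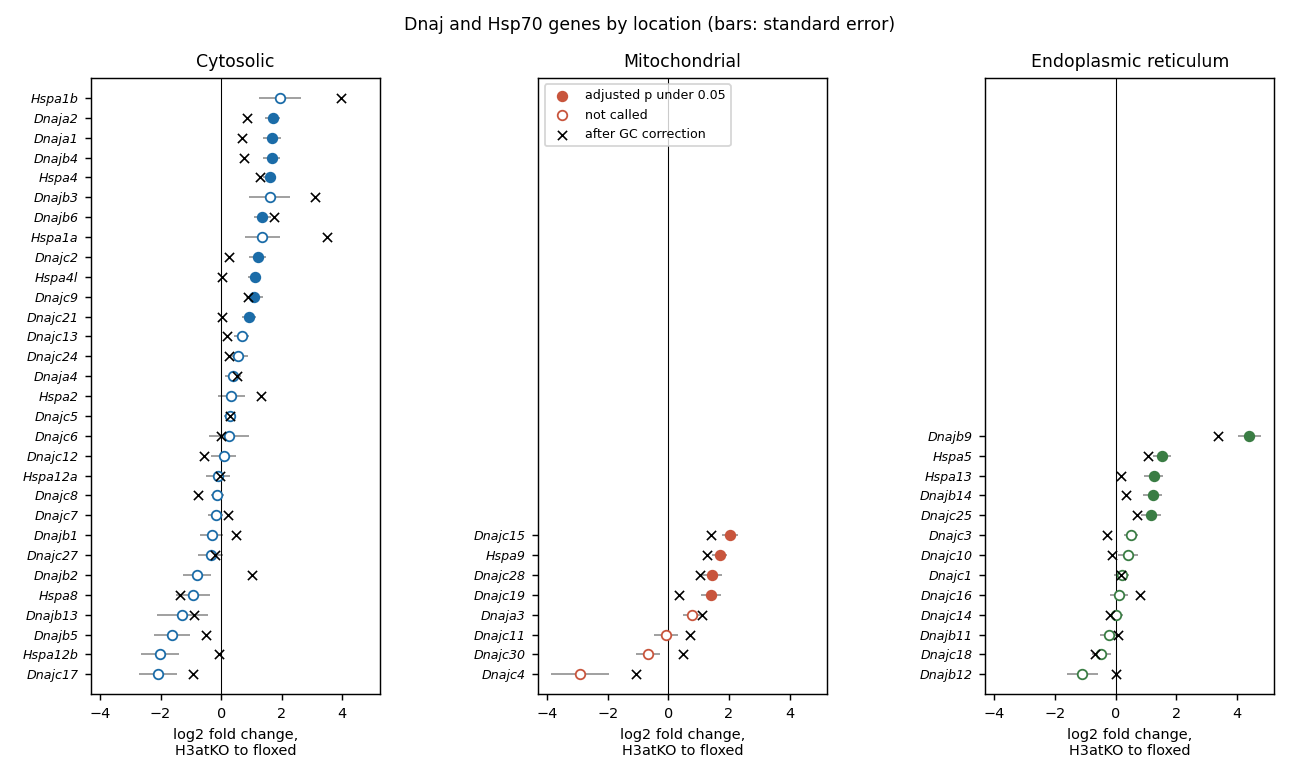
Log2 fold change of H3atKO to floxed samples (horizontal axis) for each tested member, in one panel per location, with bars for the standard error. Filled circles passed adjusted p under 0.05 in limma voom without GC correction, open circles did not, and crosses give the value after the GC correction, and the 18 filled circles all lie to the right of 0, from 0.92 for *Dnajc21* to 4.42 for *Dnajb9*.

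Samples with the same replicate number deviated together across genes, and with the numbers as a block 23 members rose (24.8% of all genes) and 8 fell (28.7%), including all 18 called without it. After the GC correction 13 members rose (5.39% of all genes) and 0 fell (3.11%), and 8 of the 18 were among the 13. At an unadjusted p under 0.05 the corrected values were lower in 4 members and in 2152 of all 14967 genes. With block and correction together 17 members rose (13.0% of all genes) and 2 fell (9.87%). With library sizes in place of TMM factors the median over all genes was -0.94, that of the members was -0.44, and 4 members rose (2.04% of all genes) while 13 fell (37.9%), but all 18 called members kept a positive value, the lowest being 0.08. With a sample left out, 21 members rose and 6 fell without floxed replicate 3, which kept all 18 calls. In that fit 2729 of all 14759 genes rose and 3828 fell. Without floxed replicates 1 and 2 the counts were 3 and 0 members higher. Without H3atKO replicates 1, 2 and 3 they were 3, 5 and 2 higher, and 0 members fell in any of these fits. Over all genes the same fits, in this order, called 149, 1, 199, 395 and 87 higher and 90, 0, 47, 139 and 20 lower. They tested between 14736 and 14942 genes. Of the 18 called members, 13 passed only in the fit without floxed replicate 3 among these 6 fits. In the fit without floxed replicate 2, 18 members were higher and 3 lower at an unadjusted p under 0.05. Over all 14860 genes tested there, 1926 were higher and 2407 lower at this threshold. Floxed replicate 3 was the highest floxed sample in 17 of the 18 called members, and in 81.8% of all genes called higher.

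In the ER group, *Dnajb9* rose most. It encodes ERdj4, a J protein of BiP that takes part in the disposal of misfolded ER proteins, and lies on chromosome 12 from 44205559 to 44210326. Its normalized expression was 43.3, 38.6 and 98.5 cpm in floxed replicates 1 to 3 and 1191, 1052 and 1271 cpm in H3atKO replicates 1 to 3. The mean was 60.1 ± 33.3 cpm in floxed and 1171 ± 110 cpm in H3atKO samples (SD, n = 3 each), a 19.5-fold difference, and the lowest H3atKO sample was far above the highest floxed sample. It rose by 4.42 on the log2 scale (standard error 0.38, adjusted p = 0.00793), and by 3.38 after the GC correction (adjusted p = 0.00751). It passed the threshold in 5 of the 6 fits that left out a sample. Without floxed replicate 2 the adjusted p was 0.0508 at a log2 fold change of 4.16.

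*Hspa5*, the gene of BiP, lies on chromosome 2 from 34771970 to 34777547. It was at 283, 249 and 439 cpm in floxed and at 1035, 1018 and 704 cpm in H3atKO replicates 1 to 3, so that the third replicates lay closest to each other and the groups did not overlap. It rose by 1.52 on the log2 scale (standard error 0.30, adjusted p = 0.0269), to 2.84-fold of the floxed mean. After the GC correction the log2 fold change was 1.06 and the call was lost (adjusted p = 0.0607, and 0.0548 with the replicate block). Of the fits that left out a sample, only the one without floxed replicate 3 kept the call, with adjusted p values from 0.0681 to 0.117 in the others.

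Another 3 ER genes rose, each with every H3atKO sample above every floxed sample. *Hspa13*, which encodes a short Hsp70-like protein of microsomes, was at 20.6, 30.1 and 40.5 cpm in floxed and 58.3, 67.9 and 87.7 cpm in H3atKO samples (log2 fold change 1.26, adjusted p = 0.0406). *Dnajb14*, a J protein anchored in the ER membrane, was at 33.1, 38.7 and 55.7 against 70.3, 101 and 130 cpm (log2 fold change 1.23, adjusted p = 0.0431). *Dnajc25* was at 10, 11.4 and 17.8 against 22.8, 33.1 and 30.6 cpm (log2 fold change 1.16, adjusted p = 0.0492). Floxed replicate 3 was the highest floxed sample in each of them. After the GC correction the log2 fold changes were 0.18, 0.36 and 0.72 for *Hspa13*, *Dnajb14* and *Dnajc25*, and none passed the test (adjusted p = 0.459, 0.233 and 0.0936).

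Other J proteins of BiP in the ER lumen did not pass the test. *Dnajb11*, the gene of ERdj3, which binds nascent proteins ahead of BiP, was at 40.7, 36.8 and 47.4 cpm in floxed and at 41.4, 38.2 and 26.4 cpm in H3atKO samples (log2 fold change -0.23, standard error 0.27, adjusted p = 0.511). The value was 0.07 after the GC correction, and -1.10 with library sizes alone (adjusted p = 0.0331). The H3atKO samples fell within or below the floxed range. It is named although it is outside the rule for named genes, having been chosen after its values were seen. *Dnajc3*, the gene of p58IPK, a BiP partner that also inhibits eIF2alpha kinases, was at 113, 123 and 155 cpm against 171, 169 and 213 cpm, with no overlap. Its log2 fold change was 0.50 (adjusted p = 0.140), it rose with the replicate block (adjusted p = 0.0430), and the value was -0.27 after the GC correction and -0.35 with library sizes alone.

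Among membrane J proteins of the ER, *Dnajb12* was at 38.76, 24.9 and 13.3 cpm in floxed and at 13.6, 12.9 and 7.14 cpm in H3atKO samples. Only floxed replicate 3 reached into the H3atKO range. The log2 fold change was -1.09 (adjusted p = 0.139), *Dnajb12* fell with the replicate block (adjusted p = 0.00908), and the value was 0.01 after the GC correction. *Dnajc18* was at 13.0, 16.4 and 19.6 against 12.7, 12.3 and 9.73 cpm (log2 fold change -0.47, adjusted p = 0.271). *Dnajc14* was at 67.6, 65.9 and 51.5 against 56.4, 59.5 and 69.6 cpm, which overlap fully (log2 fold change 0.004, adjusted p = 0.990). With library sizes alone its value was -0.84, past the threshold (adjusted p = 0.0341). It overlaps *Sarnp* on the same strand, and how reads in the overlap were assigned is not given in the sources used here. Of the windows of 50 bases in its longest transcript, 0.144% occur in *Sarnp*. The other 4 ER members, among them the reductase gene *Dnajc10*, had log2 fold changes from -0.23 to 0.41, adjusted p of 0.353 or more and overlapping groups.

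**Figure D2:**
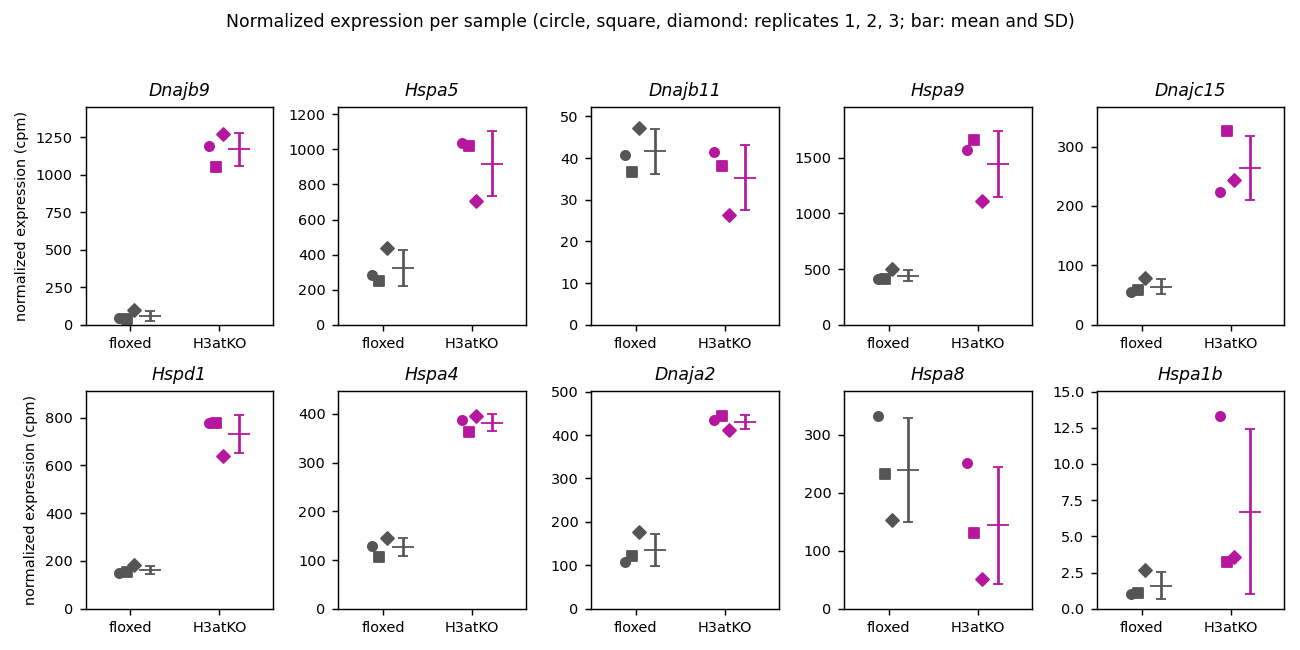
Normalized expression in cpm (vertical axis, linear from 0) of 9 members and of *Hspd1* in each sample, with floxed in grey and H3atKO in magenta. Circles, squares and diamonds are replicates 1, 2 and 3, and the bar gives the mean and SD; *Dnajb9* is between 1052 and 1271 cpm in H3atKO and at most 98.5 cpm in floxed samples, while the values of *Hspa8* overlap.

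The mitochondrial group had the highest median log2 fold change of the locations, 1.10 over its 8 members. *Hspa9*, the gene of mortalin, was at 409, 413 and 502 cpm in floxed and at 1566, 1663 and 1108 cpm in H3atKO replicates 1 to 3. The means were 441 ± 52.5 and 1446 ± 296 cpm (SD, n = 3 each), and the lowest H3atKO sample was above the highest floxed sample by a wide margin. It rose by 1.69 on the log2 scale (standard error 0.25, adjusted p = 0.0153) and by 1.27 after the GC correction (adjusted p = 0.0312). The call held in 3 of the 6 fits that left out a sample, with adjusted p of 0.0546, 0.0937 and 0.0565 without floxed replicates 1 and 2 and H3atKO replicate 1. The share of counts from the mitochondrial genome was higher in the same samples, between 26.9 and 35.3% against 6.92 and 12.9%, and its part in the result was not tested.

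*Dnajc15* and *Dnajc19* encode related J proteins of the motor that draws proteins into the matrix, where their partner is mortalin. *Dnajc15*, on chromosome 14 from 77820681 to 77875125, was at 55.3, 58.0 and 78.9 cpm in floxed and at 224, 326 and 244 cpm in H3atKO samples. It rose by 2.04 on the log2 scale (standard error 0.26, adjusted p = 0.0108) and by 1.40 after the GC correction (adjusted p = 0.0199), the largest rise among mitochondrial members in both fits. It was past the threshold in 4 of the 6 fits that left out a sample, with adjusted p of 0.0664 without floxed replicate 2 and 0.0502 without H3atKO replicate 3. *Dnajc19* was at 16.6, 16.7 and 27.7 against 36.7, 66.6 and 59.3 cpm. It rose by 1.40 (adjusted p = 0.0384), while after the GC correction the value was 0.36 (adjusted p = 0.381). Its locus overlaps *Fxr1* on the other strand, and the strand setting of the counting is not given in the sources used here.

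*Dnajc28* was at 11.5, 11.8 and 19.6 cpm in floxed and at 28.4, 45.8 and 42.0 cpm in H3atKO samples. It rose by 1.45 on the log2 scale (adjusted p = 0.0346), and by 1.05 after the GC correction it was just short of the threshold (adjusted p = 0.0516, and 0.0318 with the replicate block). *Dnaja3*, the gene of the matrix J protein Tid1, was at 60.3, 49.2 and 43.6 against 110, 99.6 and 60.4 cpm. The groups all but touched, with 60.34 cpm in floxed replicate 1 and 60.38 cpm in H3atKO replicate 3. Its log2 fold change was 0.79 (adjusted p = 0.0859), it rose with the replicate block (adjusted p = 0.0159) and by 1.12 after the GC correction (adjusted p = 0.0292), and the value was -0.07 with library sizes alone. *Dnaja3* overlaps *Vasn* on the same strand.

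The remaining mitochondrial genes had negative values. *Dnajc4* was at 15.8, 8.89 and 2.70 cpm in floxed and at 1.44, 0.917 and 0.569 cpm in H3atKO samples, and floxed replicate 3 was the floxed sample closest to the H3atKO samples. Its log2 fold change of -2.91 had a standard error of 0.95 (adjusted p = 0.0648), and it fell with the replicate block (adjusted p = 0.00323) and with edgeR (adjusted p = 0.0253), whereas the value after the GC correction was -1.07 (adjusted p = 0.147). *Dnajc30* was at 12.6, 12.5 and 10.2 against 9.46, 9.88 and 3.92 cpm (log2 fold change -0.67, adjusted p = 0.227), and at 0.47 after the GC correction. *Dnajc11*, whose protein is bound to the cristae junction complex, was at 39.6, 27.6 and 17.7 against 32.6, 29.2 and 16.0 cpm. Its groups overlapped (log2 fold change -0.08, adjusted p = 0.890), and with block and GC correction together it rose by 0.69 (adjusted p = 0.0412).

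In the cytosol 9 of 30 tested members rose, and the constitutive Hsp70 was not among them. *Hspa8* was at 333, 232 and 154 cpm in floxed and at 250.9, 130 and 51.4 cpm in H3atKO replicates 1 to 3. The groups overlapped, and within each replicate number the H3atKO sample was the lower one. With a log2 fold change of -0.93 it did not pass (standard error 0.57, adjusted p = 0.236), and *Hspa8* fell with the replicate block (adjusted p = 0.0258), also with the GC correction added (log2 fold change -1.37, adjusted p = 0.0186). Of the windows of 50 bases in its longest transcript, 51.4% occur in transcripts of 13 other genes, and reads with more than 1 place were not counted. Alignments of such reads made up 28.3 to 35.2% of all alignments in floxed and 43.8 to 45.5% in H3atKO samples.

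The nucleotide exchange factors of the Hsp110 type rose. *Hspa4*, on chromosome 11 from 53259814 to 53300457, was at 129, 106 and 145 cpm in floxed and at 388, 362 and 395 cpm in H3atKO samples, with means of 127 ± 19.2 and 382 ± 17.3 cpm (SD, n = 3 each). It rose by 1.604 on the log2 scale (standard error 0.22, adjusted p = 0.0126) and by 1.27 after the GC correction (adjusted p = 0.0148). The call was lost without floxed replicate 2 (adjusted p = 0.0829) and without H3atKO replicate 3 (adjusted p = 0.0594). *Hspa4l* was at 32.8, 34.1 and 30.8 against 72.5, 62 and 76.7 cpm and rose by 1.11 (adjusted p = 0.0264), but the value after the GC correction was 0.01 (adjusted p = 0.980).

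Of the class A and class B J proteins that serve *Hspa8*, 4 rose by between 1.36 and 1.70 on the log2 scale, with every H3atKO sample above every floxed sample. *Dnaja2* was at 108, 121 and 178 cpm in floxed and at 435, 444 and 411 cpm in H3atKO samples (log2 fold change 1.70, standard error 0.26, adjusted p = 0.0155). It was still higher by 0.85 with the GC correction (adjusted p = 0.0455). *Dnaja1* was at 38.1, 43.8 and 70.2 against 135, 140 and 203 cpm (log2 fold change 1.68, adjusted p = 0.0241) and at a log2 fold change of 0.68 after the GC correction (adjusted p = 0.0383). Of its transcript windows, 18.7% occur in other genes. *Dnajb4*, a close relative of *Dnajb1*, was at 51.0, 73.5 and 76.2 against 168, 272 and 202 cpm (log2 fold change 1.67, adjusted p = 0.0207). The GC correction took it to 0.75 (adjusted p = 0.113, and 0.0350 with the replicate block).

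*Dnajb6*, whose protein keeps aggregation-prone proteins soluble and whose promoter holds the heat shock run shown above, was at 11.7, 15.2 and 18.0 cpm in floxed and at 36.8, 42.2 and 34.2 cpm in H3atKO samples. It rose by 1.36 on the log2 scale (standard error 0.27, adjusted p = 0.0269) and, unlike the other called members, by more after the GC correction (1.75, adjusted p = 0.0186). Windows shared with other genes made up 35.8% of its longest transcript. *Dnajb2*, the gene of a J protein that binds ubiquitin, was at 42.4, 28.3 and 18.0 against 19.4, 20.8 and 9.47 cpm. Its log2 fold change was -0.80 (adjusted p = 0.201), past the threshold with the replicate block (adjusted p = 0.0237), and 1.02 in the other direction after the GC correction (adjusted p = 0.0419), so that its direction cannot be told from these fits. *Dnajb5*, also related to *Dnajb1*, was at 13.3, 9.30 and 5.71 against 3.58, 4.99 and 1.20 cpm (log2 fold change -1.63, adjusted p = 0.0811, and 0.0129 with the replicate block). With the GC correction it was at -0.49 (adjusted p = 0.399).

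The heat-inducible pair was low in both genotypes. *Hspa1a* was at 1.23, 1.27 and 1.51 cpm in floxed and at 7.20, 1.94 and 2.59 cpm in H3atKO replicates 1 to 3. *Hspa1b* was at 1.05, 1.081 and 2.67 against 13.3, 3.26 and 3.60 cpm. In both genes H3atKO replicate 1 stood above the other samples, and the groups did not overlap. The log2 fold changes were 1.35 for *Hspa1a* (standard error 0.58, adjusted p = 0.113) and 1.94 for *Hspa1b* (standard error 0.69, adjusted p = 0.0775). Without H3atKO replicate 1 they were 0.74 (adjusted p = 0.335) and 1.23 (adjusted p = 0.197), and without floxed replicate 3 *Hspa1b* passed the threshold at 2.38 (adjusted p = 0.0365). Both rose with the replicate block (adjusted p = 0.0449 for *Hspa1a* and 0.0416 for *Hspa1b*) and after the GC correction, by 3.50 and 3.94 (adjusted p = 0.0328 and 0.0402). The GC content of their transcripts was 58.9 and 58.1%, near the upper end of the members. Of their transcript windows, 60.3% of *Hspa1a* and 62.3% of *Hspa1b* are shared, mostly with each other, so that how reads divide between them is uncertain.

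J proteins with work on ribosomes and chromatin were also among those that rose. *Dnajc2*, the gene of a J protein that sits on the ribosome, was at 20.8, 22.8 and 33.9 cpm in floxed and at 63.0, 48.8 and 64.5 cpm in H3atKO samples (log2 fold change 1.21, adjusted p = 0.0346). *Dnajc21*, which has a part in making the large ribosomal subunit, was at 30.9, 33.4 and 36.6 against 51.0, 67.3 and 75.2 cpm (log2 fold change 0.92, adjusted p = 0.0447). *Dnajc9*, the gene of a histone chaperone, was at 12.3, 12.4 and 15.6 against 31.8, 22.4 and 32.3 cpm (log2 fold change 1.09, adjusted p = 0.0424). The groups were separate in each of them. After the GC correction *Dnajc9* was higher by 0.89 (adjusted p = 0.0490), while *Dnajc2* and *Dnajc21* were at 0.27 and 0.03 and were not called (adjusted p = 0.351 and 0.942).

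With the replicate numbers as a block, 12 of 30 cytosolic members rose (24.8% of all genes) and 6 fell (28.7%). Without the block 0 fell (7.07% of all genes), and 3 were lower at an unadjusted p under 0.05 (3506 of all 14967 genes). Of the same members, edgeR and DESeq2 called 2 and 3 lower (18.4 and 23.2% of all genes). *Hspa12b*, an Hsp70 relative known from endothelial cells, was at 79.4, 56.4 and 19.7 cpm in floxed and at 11.9, 12.8 and 8.40 cpm in H3atKO samples. With a value of -2.02 on the log2 scale (standard error 0.63, adjusted p = 0.0597), it fell with the replicate block (adjusted p = 0.00437), and it was at -0.07 after the GC correction (adjusted p = 0.863). The 6 endothelial markers summed to between 642 and 958 cpm in floxed and between 433 and 574 cpm in H3atKO samples, 3 of them fell, none was at 0 in all samples, and their part in this value was not tested. *Dnajc17*, a nuclear J protein tied to splicing, was at 6.49, 4.45 and 2.38 against 1.15, 1.17 and 0.569 cpm (log2 fold change -2.09, adjusted p = 0.0562, and 0.00617 with the replicate block). After the GC correction it was at -0.94 (adjusted p = 0.124), and 18.9% of its transcript windows are shared with another gene.

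The other 14 tested cytosolic members had log2 fold changes from -1.28 in *Dnajb13*, which overlaps *Ucp2* on the other strand, to 1.6 in *Dnajb3* and adjusted p of 0.0766 or more. In 5 of them every H3atKO sample lay above every floxed sample (23.1% of all tested genes). In 9 the groups overlapped (7224 of all 14967 tested genes). *Dnajb1*, the usual J partner of *Hspa8* and *Hspa1a*, was one of the latter, at 24.4, 21.8 and 15.0 against 21.6, 17.2 and 10.3 cpm (log2 fold change -0.32, adjusted p = 0.522, and 0.49 in the other direction after the GC correction). It was chosen after its values were seen. *Dnajb7* and *Hspa1l* stayed under 1 cpm in every sample and were not tested.

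The partners of these chaperones were read from 3 lists of 49 genes in all, of which 10 rose (9.42% of all genes) and 1 fell (7.07%). Their median log2 fold change was 0.07, against -0.09 over all genes. In the mitochondrial list 4 of 12 rose and 0 fell. With the replicate block 5 of them rose (24.8% of all genes) and 3 fell (28.7%). *Hspd1* and *Hspe1*, the genes of the Hsp60 chamber and its Hsp10 lid, which fold matrix proteins handed on by mortalin, had the largest fold changes. *Hspe1* was at 26.2, 19.8 and 38.5 cpm in floxed and at 187, 183 and 198 cpm in H3atKO samples (log2 fold change 2.80, standard error 0.28, adjusted p = 0.00793). *Hspd1* was at 150, 153 and 183 against 775, 778 and 639 cpm (log2 fold change 2.17, standard error 0.22, adjusted p = 0.00793). Corrected for GC content, they were higher by 2.33 and 1.88 (adjusted p = 0.00895 for both), and without floxed replicate 2 the adjusted p was 0.0516 and 0.0519. Of the windows of *Hspd1*, 44.8% occur in other genes. The protease subunit gene *Clpx* rose by 1.27 (adjusted p = 0.0249), and *Grpel2*, the gene of a nucleotide exchange factor of mortalin, by 1.02 (adjusted p = 0.0383). Neither passed after the GC correction (adjusted p = 0.151 and 0.0802). The 3 genes that fell with the block were *Clpp* at -1.89, *Lonp1* at -1.58 and *Clpb* at -1.29 (adjusted p = 0.00398, 0.0034 and 0.00505). Without the block *Clpp*, *Lonp1* and *Clpb* did not pass (adjusted p = 0.117, 0.136 and 0.144). The GC correction alone moved these genes to 0.11, 0.14 and -0.55.

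In the cytosolic list 4 of 18 rose (9.42% of all genes) and 0 fell (7.07%). *Hsp90aa1*, the gene of inducible Hsp90, was at 69.9, 68.2 and 71.0 cpm in floxed and at 243, 225 and 168 cpm in H3atKO samples (log2 fold change 1.59, adjusted p = 0.0149), and at 0.89 after the GC correction (adjusted p = 0.0905). Windows shared with other genes made up 58.5% of its transcript. The Hsp110 gene *Hsph1* rose by 1.41 (adjusted p = 0.0355), and the exchange factor genes *Bag2* and *Bag1* by 1.28 and 1.16 (adjusted p = 0.0447 and 0.0256). *Bag1* and *Bag2* passed after the GC correction as well, by 2.35 and 1.63 (adjusted p = 0.0220 and 0.0195), and *Hsph1* did not (adjusted p = 0.0637). With the replicate block 7 of this list rose (24.8% of all genes) and 5 fell (28.7%), which were *Hsf1*, *Stub1*, *Hspbp1*, *Hspb1* and *Cryab*. The heat shock factor gene *Hsf1* was at 23.9, 15.3 and 4.37 against 2.14, 1.53 and 0.884 cpm. Its log2 fold change was -2.97 (adjusted p = 0.0571), and -2.04 after the GC correction (adjusted p = 0.0955). In the ER list 2 of 19 rose (9.42% of all genes) and 1 fell (7.07%). *Canx* rose by 1.27 (adjusted p = 0.0305) and *Hsp90b1* by 1.21 (adjusted p = 0.0381), which encode the lectin calnexin and the Hsp90 of the ER. *P4hb*, the gene of protein disulfide isomerase, fell by 1.10 on the log2 scale (adjusted p = 0.0344), with 300, 261 and 234 against 129, 148 and 96.8 cpm. Corrected for GC content, these were at 0.37, 0.30 and -0.08, and none was called (adjusted p = 0.173, 0.458 and 0.793). With the replicate block the counts over all 49 partners were 18 higher (24.8% of all genes) and 13 lower (28.7%). They were 15 and 12 without floxed replicate 3 (2729 and 3828 of all 14759 genes). Without any one of the other samples they were at most 3 and 0 (at most 395 and 139 of all genes).

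Among Hsp70 genes alone, the shares of *Hspa8* and *Hspa9* differed between the genotypes. Levels were divided by exon length for this purpose and given as shares of the summed level of the 12 *Hspa* genes, taken within each sample, so that library scaling does not enter. *Hspa8* took 25.7, 20.4 and 11.7% in floxed and 7.60, 3.98 and 2.20% in H3atKO samples. *Hspa9* took 31.5, 36.1 and 38.2% against 47.3, 51.0 and 47.4%. *Hspa5* took 22.2, 22.2 and 34.0% against 31.9, 31.8 and 30.7%. The genotypes did not overlap for *Hspa8* and *Hspa9* and did for *Hspa5*. By limma voom *Hspa8* itself did not pass (adjusted p = 0.236). Reads with more than 1 place were not counted, and 51.4% of the transcript windows of *Hspa8* occur in other genes. The part of such reads in its share was not tested. *Hspa12b* took 4.89% ± 2.80 in floxed and 0.433% ± 0.0217 in H3atKO samples (SD, n = 3 each), and *Hspa4* took 7.85% ± 0.665 and 10.3% ± 2.47. The sum itself was 301, 265 and 305 cpm per kilobase in floxed and 768, 757 and 543 in H3atKO samples.

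**Figure D3:**
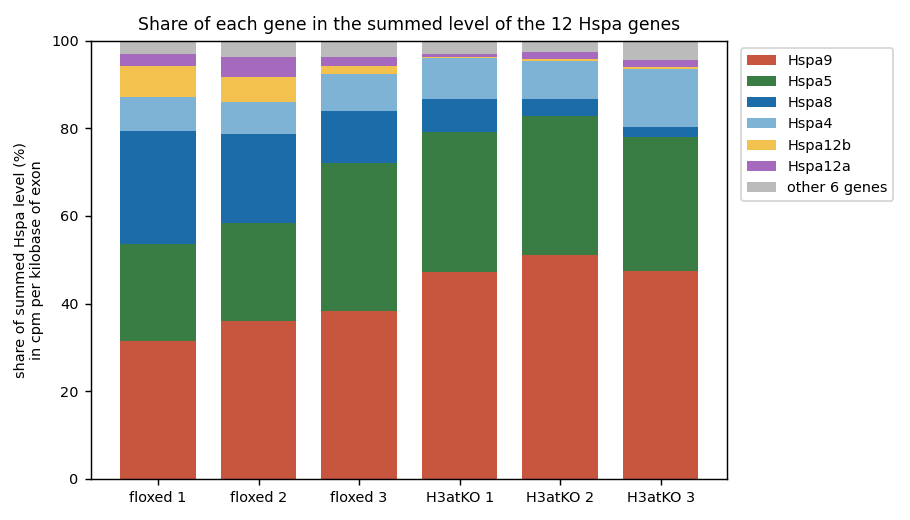
Share of each Hsp70 gene (vertical axis, in percent) in the summed level of the 12 *Hspa* genes, in cpm per kilobase of exon, in each of the 6 samples. The share of *Hspa8* (dark blue) is between 11.7 and 25.7% in floxed and at most 7.60% in H3atKO samples, and that of *Hspa9* (red) is 31.5 to 38.2% and 47.3 to 51.0%.

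Ratios of pairs of genes within a sample were taken from the same levels per length as the shares. The pairs were chosen after the values were seen, so the ratios are given without a test. The log2 ratio of *Hspa9* to *Hspa8* was 0.30, 0.83 and 1.70 in floxed and 2.64, 3.68 and 4.43 in H3atKO samples. That of *Hspa5* to *Hspa8* was -0.21, 0.13 and 1.54 against 2.07, 3.00 and 3.80, and that of *Hspa9* to *Hspa5* 0.50, 0.70 and 0.16 against 0.57, 0.68 and 0.63. Thus the organelle Hsp70s were higher relative to *Hspa8* in every H3atKO sample than in any floxed sample, whereas the ratio of *Hspa9* to *Hspa5* overlapped between the genotypes. The 3 transcripts have GC contents of 45.9% (*Hspa8*), 45.6% (*Hspa5*) and 45.9% (*Hspa9*). Both ratios to *Hspa8* nevertheless rose from sample to sample as the rho between GC content and expression fell, also within each genotype. That rho was 0.800, 0.623 and 0.0969 for the floxed samples, then -0.433, -0.504 and -0.711 for the H3atKO ones. The part of this trend in the ratios to *Hspa8* was not tested. Around BiP, the log2 ratio of *Dnajb9* to *Hspa5* was -1.98, -1.96 and -1.43 in floxed and 0.93, 0.78 and 1.58 in H3atKO samples. The ratio of *Dnajb11* to *Hspa5* was -2.41, -2.37 and -2.83 against -4.26, -4.35 and -4.35, and that of *Dnajc3* to *Hspa5* was -1.61, -1.30 and -1.78 against -2.88, -2.87 and -2.0. Among J proteins of BiP, *Dnajb9* was thus higher and *Dnajb11* and *Dnajc3* lower in relation to *Hspa5* in all H3atKO samples. GC contents were 40.6% for *Dnajb9*, 43.2% for *Dnajc3*, 45.6% for *Hspa5* and 50.5% for *Dnajb11*, which the ratios do not correct for. After the GC correction their log2 fold changes were 3.38, -0.27, 1.06 and 0.07 in this order. The part of GC content in the ratios was not tested.

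The order of levels per kilobase of exon changed accordingly. In floxed samples *Hspa9* led with a mean of 102 ± 12.2 cpm per kilobase, ahead of *Hspa5* with 76.6 ± 24.0, *Hspa8* with 55.7 ± 20.9, *Dnaja2* with 45.5 ± 12.5 and *Dnajc7* with 36.2 ± 5.08 (SD, n = 3 each), and neighbours in this order overlapped in their samples. *Dnajb9* was in place 8 with 23.6 ± 13.1. In H3atKO samples *Dnajb9* led with 460 ± 43.3, followed by *Hspa9* with 335 ± 68.8, *Hspa5* with 217 ± 44.1, *Dnaja2* with 144 ± 5.67 and *Hspa4* with 69.1 ± 3.13. Here the samples of each of these 5 genes lay apart from those of the next, and *Hspa8*, with 33.5 ± 23.4, was in place 8. Levels of *Hspa8* per length leave out the reads that its copies share.

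**Figure D4:**
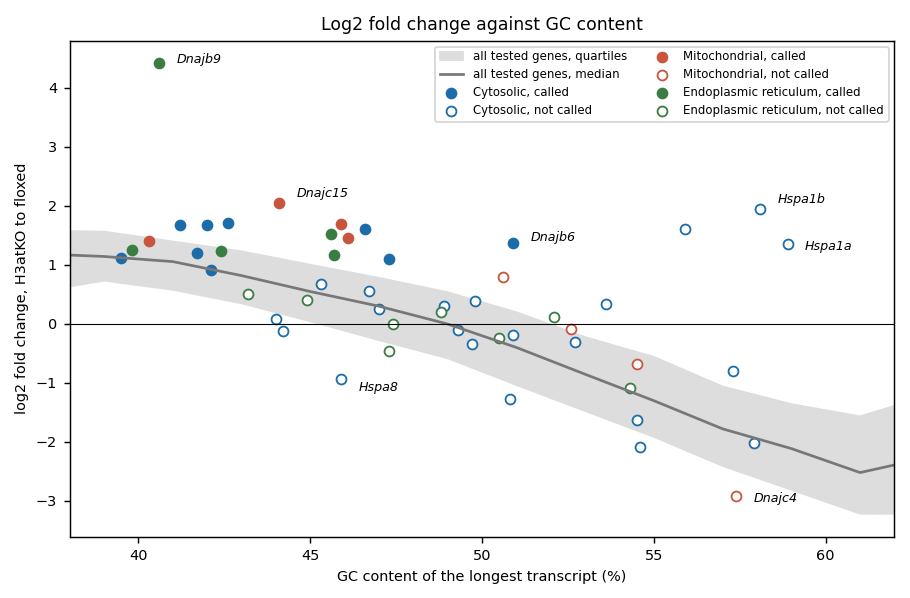
Log2 fold change of each tested member (vertical axis) against the GC content of its longest transcript in percent (horizontal axis), coloured by location and filled where called. The grey line and band are the median and quartiles of all tested genes by GC content; 17 of the 18 called members have a GC content under 48%, and *Dnajb9*, *Hspa1b* and *Hspa1a* lie far above the band while *Hspa8* lies below it.

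The fold changes of the members followed GC content, as those of all genes did. Spearman's rho between GC content and log2 fold change was -0.534 over the 51 tested members and -0.706 over all genes, as a description across genes that share the same 6 libraries. Of the 27 members with a GC content under 48%, 17 rose, and of the 24 at or above it 1 did, which was *Dnajb6* with 50.9%. Of all tested genes, 19.0% rose in the class under 48% and 2.05% in the class at or above it. The median GC content was 47.3% for tested members, 49.2% for all genes, and 49.1, 48.4 and 45.7% for the cytosolic, mitochondrial and ER members. The members called both without and with the GC correction were *Dnajb9*, *Dnajc15*, *Hspa9*, *Hspa4*, *Dnaja2*, *Dnaja1*, *Dnajb6* and *Dnajc9*. They include 1 of the 5 called ER genes, 2 of the 4 mitochondrial and 5 of the 9 cytosolic ones.

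**Figure D5:**
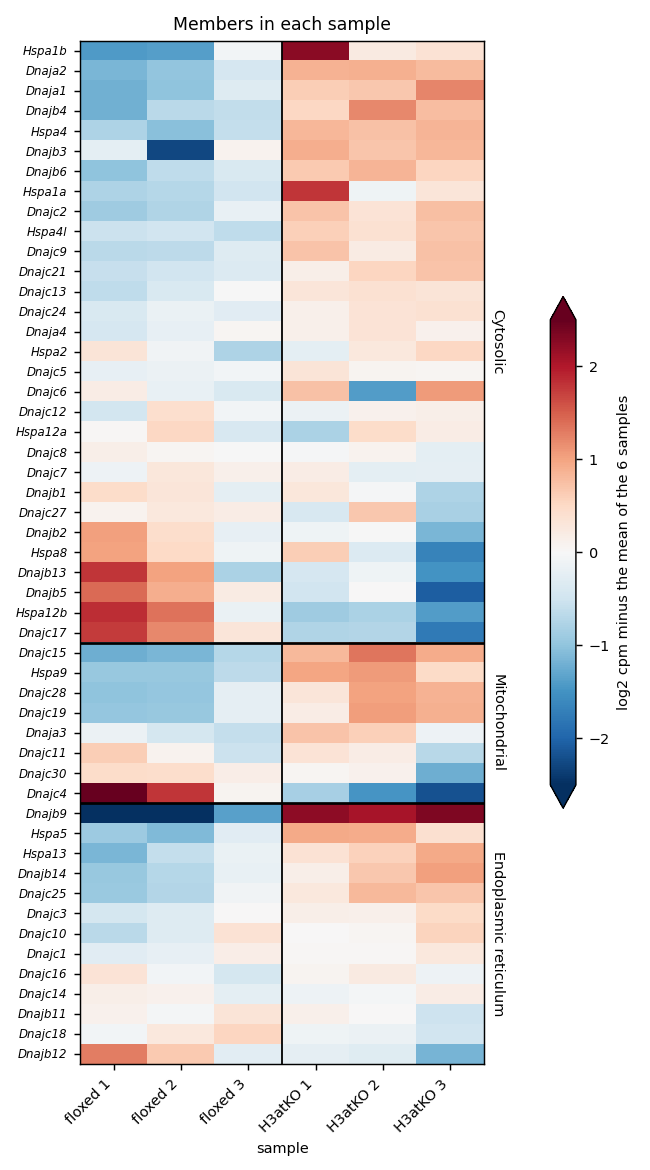
Log2 cpm of each tested member in each sample minus its mean over the 6 samples (colour, red higher and blue lower), in rows by location and fold change, with floxed replicates 1 to 3 left and H3atKO replicates 1 to 3 right of the line. Floxed replicate 3 is paler than floxed replicates 1 and 2 in most called rows, and *Dnajb9* has the strongest contrast.

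Within a genotype, the highest of the 3 floxed samples was 1.63-fold the lowest in the median member, against 1.88-fold in the median of all genes, and in H3atKO samples it was 1.5-fold against 1.88-fold. Among called members, H3atKO samples ran from 411 to 444 cpm in *Dnaja2* and from 362 to 395 cpm in *Hspa4*, but from 70.3 to 130 cpm in *Dnajb14*. Wide ranges were found in *Dnajc4*, with 2.70 to 15.8 cpm in floxed samples, and in *Hspa8*, with 51.4 to 250.9 cpm in H3atKO samples. In both of these genes the third replicate was the lowest of either genotype, and these were also the samples with the lowest rho between GC content and expression in their genotype.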

How the data were processed

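RNA-seq of 3 floxed and 3 H3atKO pools was used. Per the labels and the study's methods, the authors trimmed reads with cutadapt 1.3, aligned them to GRCm38 with STAR 2.4.2a, counted them on Ensembl genes with HTSeq 0.6.1 (reads with more than 1 place left out) and deposited raw counts, 1 file per sample. The last lines of each file, which name no gene, were tallies of 37.3 to 51.7% of alignments and were left out of library sizes and tests.

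Groups and replicate numbers came from the labels. In R 4.3.3, the 14967 genes that reached 1 cpm in 1 sample or more were scaled with TMM and tested over all 6 samples with limma 3.58.1 (voom, empirical Bayes), as in the study, with Benjamini-Hochberg adjustment over all genes. Cpm are of the TMM-scaled library, and fold changes are on voom's log2 scale with 0.5 counts added. Alternatives were edgeR 4.0.16, DESeq2 1.42.0, other scalings and filters, quality weights, the replicate block, a GC correction and each sample left out. Same-numbered samples deviated together from their group means (r = 0.510, 0.389 and 0.264 across genes, and 0.395, 0.380 and 0.00279 after the GC correction, where the third pair no longer did), a pairing that comes from the data and not from the labels. For the GC correction a robust loess curve on the GC content of the longest transcript (span 0.3) was subtracted from each sample, which also removes any effect of genotype that follows GC content. Symbols, positions and lengths came from GENCODE M21 (GRCm38), which held 46005 of the 46517 identifiers. Some of the fits were also run on simulated counts. These were drawn without a GC trend and without shared deviations of same-numbered samples, so that run does not bear on either.

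Full values are given for members called, the main Hsp70 genes, in each location the 3 other members of largest absolute fold change, and members called in the opposite direction by an alternative. The members, the lists of locations, partners and markers, and the alternatives were chosen with earlier results of these data known.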

Additional observations from a re-analysis of the deposited data

Results flagged for a closer look

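Outside the counts on genes, the tallies of alignments to several places made up 44.7% ± 0.848 (SD, n = 3) of all alignments in H3atKO and 30.9% ± 3.68 (SD, n = 3) in floxed samples, with 43.8 to 45.5% against 28.3 to 35.2% and no overlap. They drew attention because these reads enter none of the comparisons. Of the 53 members, those with the largest shares of transcript windows found in other genes were *Hspa1b* (62.3%), *Hspa1a* (60.3%) and *Hspa8* (51.4%), and the part of these reads in their values was not tested.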

How the results depend on the processing

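The 18 called members had a positive log2 fold change in every alternative run, and all 18 passed with edgeR, DESeq2, RLE factors, a minimum of 10 counts per sample, quality weights and the replicate block, 12 with no filter, 10 with the replicate block with GC correction, 8 with the GC correction and 4 with library sizes alone. Counts are given as all members, then cytosolic, mitochondrial and ER members, then cofactors. With library sizes alone 4, 2, 1, 1 and 2 were higher (2.04% of all genes) and 13, 7, 2, 4 and 15 lower (37.9%). With the replicate block 8, 6, 1, 1 and 13 were lower (28.7% of all genes) and 18 cofactors higher (24.8%), and it changed the calls of members only by adding to them. With quality weights 6, 4, 1, 1 and 13 were lower and 18 cofactors higher, where 4440 of all 14967 genes were lower and 4003 higher. With DESeq2 4, 3 and 1 members in all, the cytosol and mitochondria and 10 cofactors were lower (23.2% of all genes) and 17 cofactors higher (19.7%). With edgeR the same lower counts were 3, 2 and 1, and 5 for cofactors (18.4% of all genes). With a minimum of 10 counts per sample 1 member, cytosolic, and 5 cofactors were lower (1864 of all 12466 genes). With the GC correction 1 ER member was higher (5.39% of all genes), and with the block added 2 were (13.0%). In the latter fit 2 members, both cytosolic, and 2 cofactors were lower (9.87%). Without a filter 2 ER members were higher (1092 of all 25279 genes).

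With each sample left out in turn, 0 to 21 members were higher and 0 to 6 lower, 0 to 12 and 0 to 4 in the cytosol, 0 to 4 and 0 to 1 in mitochondria, 0 to 5 and 0 to 1 in the ER, and 0 to 15 and 0 to 12 among cofactors. Over all genes the ranges were 1 to 2729 higher and 0 to 3828 lower. Leaving out any sample but floxed replicate 3 left at most 5 members and at most 395 of all genes higher. The log2 fold change of *Hdac3* ran from -2.11 to -1.56.

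Over all tested members, 34 had values above 0 (47.5% of all genes), against 21 with library sizes alone (23.1%), and 36 with the GC correction (51.0%). Among members given in full, directions turned as follows, on the log2 scale. With library sizes alone *Dnaja3* was at -0.067, *Dnajc14* at -0.84 and *Dnajc3* at -0.35. With the GC correction *Dnajb12* was at 0.015, *Dnajb2* at 1.02, *Dnajc11* at 0.70, *Dnajc14* at -0.19, *Dnajc3* at -0.27 and *Dnajc30* at 0.47, and with the block added *Dnajb2* was at 1.05, *Dnajc11* at 0.69, *Dnajc14* at -0.19, *Dnajc3* at -0.27 and *Dnajc30* at 0.54. *Dnajc14* was also at -0.11 with no filter, at -0.11 with a minimum of 10 counts per sample and at -0.13 with quality weights. With a sample left out, *Dnajc11* ran from -0.37 to 0.21 and *Dnajc14* from -0.11 to 0.073. The causes were not tested. *Hspa1l* and *Dnajb7*, under 1 cpm in every sample, entered only the fit with no filter, at -1.15 (adjusted p = 0.348) and -0.28 (adjusted p = 0.804).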
